A study of Homo sapiens with 48 samples.

Results

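The genes described here are 34 antioxidant and detoxification genes commonly counted among the targets and regulators of the transcription factor NRF2, measured by RNAseq in PSN1 cells with acquired resistance to Talazoparib. The members were taken from the normalized expression table by symbol from a fixed list, and all 34 were among its 20241 gene symbols. Talazoparib inhibits PARP1 and PARP2, enzymes that mark sites of DNA damage, and holds them on DNA. PSN1 is a human pancreatic cancer cell line described as wild type, and the study counts it among its lines without a BRCA mutation.

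Of the 48 samples of the series, 9 libraries of PSN1 cells were compared, 3 in each of 3 groups, all grown in RPMI1640 with 10% FBS. Parental cells had received no drug. TalaR-M cells had been selected in rising Talazoparib and were maintained in media with 50 nM of the drug, and the labels give 4 months for them. TalaR-DF cells were the resistant cells cultured afterwards in drug-free media for 4 weeks. Whether the resistant cells descended from 1 clone is not given in the sources used here, and neither is whether the replicates of a group were separate cultures. The p-values below therefore measure the spread between these libraries, which may be technical. All 9 libraries come from 1 cell line, and TalaR-M and TalaR-DF share their history of selection.

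NRF2, the product of NFE2L2, binds antioxidant response elements together with small MAF proteins. In unstressed cells KEAP1 holds NRF2 in the cytoplasm and delivers it for degradation, and electrophiles or oxidants that modify KEAP1 let NRF2 accumulate, so that the pathway is mainly set by the amount of NRF2 protein and not by NFE2L2 mRNA. Its targets make glutathione and thioredoxin, supply NADPH, reduce quinones and aldehydes, store iron and export conjugates. Mutations that activate the pathway are known in several carcinomas, and NRF2 supports the growth of pancreatic tumors in mouse models.

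Each value is the deposited log2 CPM, that is, the log2 of the reads of a gene scaled by a factor for its library. The factor did not follow depth alone and was not examined. The table ends at 0, which stands for 1 CPM or less. Depth, as reads on genes above 1 CPM, was 12213605 to 14973847 in 8 libraries and 8387755 in TalaR-M replicate 2, and 1 CPM was worth 6.97 reads in that library and up to 14.54 reads in the others. TalaR-M replicate 2 stood apart. Its correlation across genes with the other TalaR-M libraries was 0.780, while pairs within groups otherwise reached 0.993 to 0.997. Every test was therefore run with all 9 libraries and without this one. Not every comparison of the second fit is printed, so a comparison left out may have passed. Of the markers of epithelial cells, KRT7, KRT8, KRT18, KRT19, EPCAM, MUC1 and ITGB4 were detected in every group, and GATA6 and SOX9 of the ductal lineage were detected too, whereas CDH1 and PDX1 were at 0 in all 9 libraries. Of the genes that define other cells, CD3E, LYZ, VWF, ALB, TTR and CYP3A4 were at 0 throughout. The liver list, which marks cells rich in detoxification enzymes, had 1 marker of 4 above 0, APOA1 at 0.34 log2 CPM in TalaR-M replicate 2. The summed level of the 8 epithelial markers was 1100 to 1152 CPM in parental, 1718 to 5803 CPM in TalaR-M and 956 to 1092 CPM in TalaR-DF cells. The upper end in TalaR-M cells was that of replicate 2. KRT19 was at a mean of 5.80, 8.42 and 5.83 log2 CPM, and at 7.87 in TalaR-M cells without replicate 2. The summed level of the 5 fibroblast markers was 263.8 to 276 CPM in parental, 303.4 to 454.7 CPM in TalaR-M and 88.1 to 97.3 CPM in TalaR-DF cells. Its 5 markers did not move together, since COL1A1 had mean levels of 6.50, 8.47 and 3.82 log2 CPM in parental, TalaR-M and TalaR-DF cells and DCN of 0, 1.55 and 0, whereas PDGFRA (6.15, 4.51 and 5.87), PDGFRB (6.15, 3.22 and 2.87) and LUM (5.28, 1.78 and 3.51) had lower means in both resistant groups than in parental cells. The summed level of the 4 leukocyte markers was 11.1 to 14.7, 4.14 to 7.11 and 1.18 to 2.55 CPM, and that of the 3 endothelial markers was 14.4 to 15.1, 4.02 to 5.91 and 2.92 to 3.24 CPM. CD14 had mean levels of 3.72, 1.77 and 0.48 log2 CPM and PECAM1 of 3.79, 2.25 and 1.62. PTPRC did not move with CD14, being at 0 in parental cells and at 1.79, 0 and 0.83 log2 CPM in the TalaR-M libraries. Marker levels of TalaR-M cells include replicate 2 unless stated. The part of these markers in the results was not tested.

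In TalaR-M cells, 8 members were higher than in parental cells and none was lower by limma, and at an unadjusted p under 0.05 these counts were 10 and 3 (HMOX1, GSR and UGDH being lower), beside 16.6% and 21% of all genes. These were the quinone reductase NQO1, the cystine transporter subunit SLC7A11, the aldo-keto reductases AKR1B1, AKR1B10, AKR1C1 and AKR1C3, the stress-induced gene OSGIN1 and the NRF2 inhibitor KEAP1. NQO1 was 2.80-fold, SLC7A11 3.14-fold and OSGIN1 5.69-fold the parental level. Most other members, including the glutathione synthesis genes GCLC and GCLM and the heme oxygenase HMOX1, did not pass the test. In bulk RNA, fewer cells with a transcript and less of it per cell cannot be told apart. Of the 34 members, 33 exceeded 1 CPM in at least 3 libraries and were tested, and GPX2, a gut-type glutathione peroxidase, was at 0 in all 9 libraries. A member passed at an adjusted p under 0.05 by limma with Benjamini-Hochberg adjustment over the 12471 genes tested. Of the 33 members tested, 24.2% passed, beside 23.6% of all genes in either direction, so the share that passed is near the background. By direction, 10.3% of all genes were higher and 13.2% lower in TalaR-M cells. With the further demand of a 2-fold change, 6 members were higher and none lower, beside 5.53% and 7.72% of all genes. Without TalaR-M replicate 2, 17 members were higher and 5 lower, beside 30.2% and 30% of all genes, and the 6 members with a 2-fold change were the same 6, beside 6.78% higher and 7.07% lower of all genes. The count of 8 fell to 5 without parental replicate 1, 2 or 3.

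In TalaR-DF cells, 4 members were higher than in parental cells and 2 were lower, and at an unadjusted p under 0.05 these counts were 7 and 2, beside 12.7% and 16.7% of all genes. SLC7A11, AKR1B10, OSGIN1 and NQO1 were higher, the last by less than 2-fold. The ferritin heavy chain FTH1 and the glutathione transferase GSTM3 were lower, both by less than 2-fold. Of the 33 members, 18.2% passed, beside 18.6% of all genes, again a share near the background, and by direction 6.77% of all genes were higher and 11.8% lower. A 2-fold change was reached by 3 members, all higher, beside 2.25% of all genes higher and 7.49% lower. Without TalaR-M replicate 2, which enters this comparison only through the estimate of the spread, 14 members were higher and 7 lower, beside 32.5% and 30.4%, and the same 3 changed by 2-fold, beside 2.73% higher and 8.63% lower. The count of 6 fell to 2 without parental replicate 1 or TalaR-DF replicate 2 and to 3 without parental replicate 2, parental replicate 3 or TalaR-DF replicate 3. This comparison shares its parental libraries with the previous one, so their overlap is not a separate result.

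Between the resistant groups, 6 members were higher in TalaR-M than in TalaR-DF cells and none was lower by limma, against 10 and 4 at an unadjusted p under 0.05 (GCLC, ME1, GSR and SOD2 being lower), beside 14.8% and 15% of all genes. The 6 were AKR1C1, AKR1C3, AKR1B1, AKR1B10, GSTM3 and the epoxide hydrolase EPHX1. Of the 33 members, 18.2% passed, beside 12% of all genes, of which 7.79% were higher and 4.25% lower. A 2-fold change was reached by 5 members, all higher, beside 5.29% of all genes higher and 1.64% lower. Leaving out TalaR-M replicate 2, 11 members were higher and 5 lower, beside 23.5% and 25.3%, and 4 reached 2-fold, AKR1B1 being the one that did not, beside 6.96% higher and 1.4% lower. The median log2 fold change of the members was 0.24 for TalaR-M against parental, 0.12 for TalaR-DF against parental and 0.24 for TalaR-M against TalaR-DF, beside -0.09, 0.01 and -0.09 over all genes. Leaving out TalaR-M replicate 2, the medians of the members were 0.23, 0.12 and 0.14, beside 0.01, 0.01 and -0.02. Rescaling the libraries by their median ratio moved the median of all genes to 0.03 in TalaR-M against parental and to 0.08 in TalaR-M against TalaR-DF, and the medians of the members moved with it to 0.36 and 0.41.

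**Figure D1:**
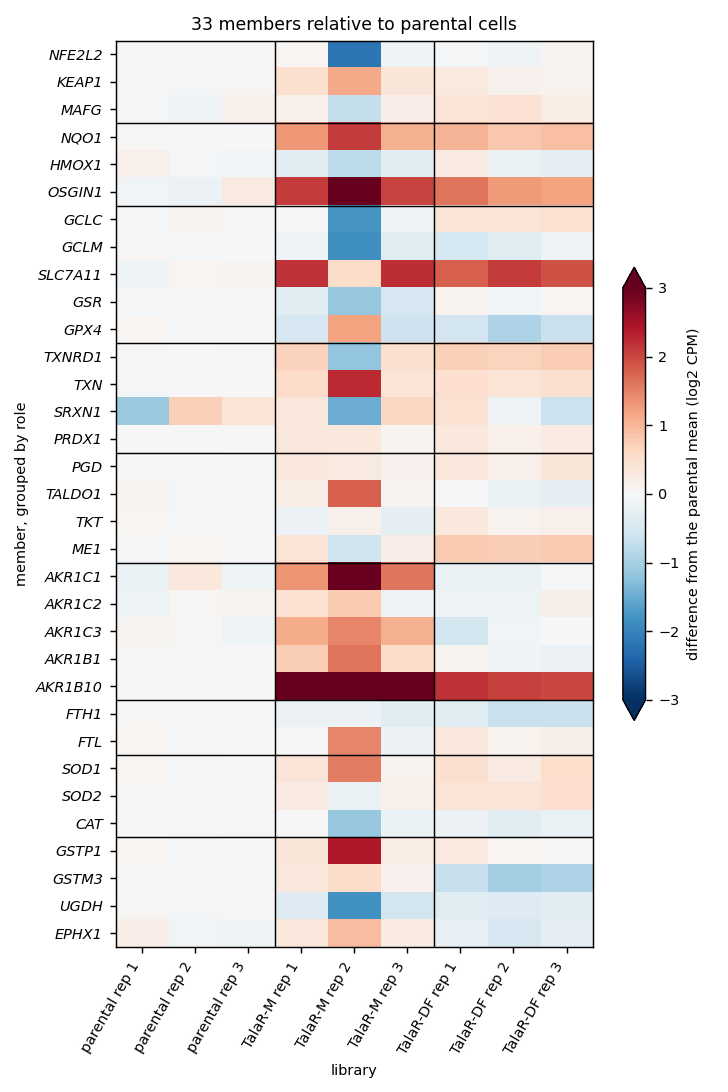
Log2 CPM of the 33 tested members in each of the 9 PSN1 libraries, as the difference from the mean of 3 parental libraries (color, -3 to 3 log2 units), with members in rows grouped by role and libraries in columns. AKR1B10, OSGIN1, SLC7A11 and NQO1 are above parental cells in both resistant groups, AKR1C1, AKR1C3 and AKR1B1 in TalaR-M cells, and TalaR-M replicate 2 differs from its group in many rows.

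The regulators came first. NFE2L2 itself (chr2:177218667-177392756, minus strand) was at 7.07, 7.01 and 7.01 log2 CPM in parental cells, at 7.10, 4.87 and 6.91 in TalaR-M cells and at 7.00, 6.92 and 7.11 in TalaR-DF cells. Its mRNA level differed in a single library, TalaR-M replicate 2. Without that library the log2 fold change of NFE2L2 was -0.03 in TalaR-M cells (95% interval -0.19 to 0.14, limma adjusted p = 0.769) and -0.02 in TalaR-DF cells (-0.17 to 0.12, adjusted p = 0.775), against -0.74 (SE 0.51, adjusted p = 0.314) in TalaR-M cells with all 9.

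KEAP1, the adaptor that sends NRF2 for degradation (chr19:10486125-10503558, minus strand), was at 6.81, 6.70 and 6.80 log2 CPM in parental, at 7.25, 7.90 and 7.14 in TalaR-M and at 7.08, 6.90 and 6.88 in TalaR-DF cells. All TalaR-M libraries lay above all others, and the TalaR-DF libraries lay above the parental ones. The log2 fold change in TalaR-M cells was 0.66 (SE 0.20, adjusted p = 0.0454 by limma) and 0.43 without replicate 2 (SE 0.07, adjusted p = 0.000373). The first call passed under 8 of 19 alternatives and was lost without any 1 of the parental or TalaR-DF libraries, the adjusted p reaching 0.140. In TalaR-DF cells KEAP1 did not pass with all 9 libraries and did so without TalaR-M replicate 2 (log2 fold change 0.18, adjusted p = 0.0306). MAFG, a small MAF partner of NRF2, was at 5.26, 5.16 and 5.44 log2 CPM in parental, at 5.45, 4.57 and 5.48 in TalaR-M and at 5.68, 5.71 and 5.51 in TalaR-DF cells. It passed in TalaR-DF cells without TalaR-M replicate 2 (log2 fold change 0.35, adjusted p = 0.00306) and in no other comparison of either fit. The groups of MAFG overlapped between parental and TalaR-M cells.

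NQO1, a cytosolic enzyme that reduces quinones in a single step and is a classical NRF2 target (chr16:69706996-69726668, minus strand, hg38), was at 7.55, 7.50 and 7.52 log2 CPM in parental, at 8.81, 9.63 and 8.59 in TalaR-M and at 8.54, 8.33 and 8.42 in TalaR-DF cells. The groups did not overlap, and the order was TalaR-M, TalaR-DF, parental. The log2 fold change was 1.49 in TalaR-M cells (SE 0.25, adjusted p = 0.00343 by limma) and 1.18 without replicate 2 (SE 0.08, adjusted p = 1.7e-07). In TalaR-DF cells it was 0.91 (SE 0.25, adjusted p = 0.0372; SE 0.07 and adjusted p = 5.93e-07 without TalaR-M replicate 2). The call in TalaR-M cells held under every alternative run, whereas the one in TalaR-DF cells passed under 9 of 19 and was lost without any 1 of the parental or TalaR-DF libraries. TalaR-M exceeded TalaR-DF cells by 0.58 (SE 0.25, adjusted p = 0.164), a difference that did not pass with all 9 libraries and did so without replicate 2, at 0.27 (adjusted p = 0.0152).

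OSGIN1, an oxidative stress-induced growth inhibitor (chr16:83931311-83966332, plus strand), was near the end of the table in parental cells, at 0.88, 0.79 and 1.23 log2 CPM. It was at 3.06, 4.37 and 3.00 in TalaR-M and at 2.56, 2.24 and 2.17 in TalaR-DF cells. The 3 groups did not overlap and had the same order as for NQO1. The log2 fold change was 2.51 in TalaR-M cells (SE 0.36, adjusted p = 0.00149 by limma; 2.06 without replicate 2) and 1.36 in TalaR-DF cells (SE 0.36, adjusted p = 0.0318; adjusted p = 1.19e-05 without TalaR-M replicate 2). The TalaR-M call held under every alternative run, while the TalaR-DF call passed under 8 of 19 and was lost when any parental or TalaR-DF library was left out, the adjusted p reaching 0.249. HMOX1, the inducible enzyme that opens heme and is often used to follow NRF2, did not follow this pattern. It was at 3.25, 3.05 and 3.02 log2 CPM in parental, at 2.76, 2.32 and 2.79 in TalaR-M and at 3.39, 2.91 and 2.83 in TalaR-DF cells, with a log2 fold change in TalaR-M cells of -0.33 without replicate 2 (95% interval -0.70 to 0.03, adjusted p = 0.104) and no call in any comparison of either fit.

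SLC7A11, the light chain of the exchanger that imports cystine for glutathione synthesis (chr4:138164097-138242349, minus strand), was at 3.42, 3.62 and 3.64 log2 CPM in parental, at 5.72, 4.11 and 5.78 in TalaR-M and at 5.34, 5.66 and 5.47 in TalaR-DF cells. Every resistant library lay above every parental one, and the low TalaR-M value was that of replicate 2. The log2 fold change was 1.65 in TalaR-M cells (SE 0.41, adjusted p = 0.021 by limma) and 2.19 without replicate 2 (SE 0.11, adjusted p = 1.13e-08). In TalaR-DF cells it was 1.94 (SE 0.41, adjusted p = 0.0122; SE 0.10 and adjusted p = 1.39e-08 without TalaR-M replicate 2), a 3.82-fold higher level. The TalaR-M call passed under 12 of 19 alternatives. It was lost without parental replicate 1, 2 or 3 and without TalaR-M replicate 1 or 3. It was also lost with no filter on low values and in a fit of these groups alone, where the adjusted p was 0.0804 by limma. The TalaR-DF call was lost without parental replicate 1 or TalaR-DF replicate 2. Between the resistant groups SLC7A11 did not pass (without replicate 2, log2 fold change 0.26, 95% interval 0.02 to 0.49, adjusted p = 0.0651).

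None of the other glutathione genes tested passed with a 2-fold change. GCLC, the catalytic subunit of the enzyme that joins glutamate and cysteine, was at 5.38 to 5.50 log2 CPM in parental and at 5.81 to 5.89 in TalaR-DF cells, and at 5.43, 3.66 and 5.33 in TalaR-M cells. In TalaR-DF cells it did not pass with all 9 libraries and did so without TalaR-M replicate 2 (log2 fold change 0.41, adjusted p = 0.000166 by limma). GCLM, its modifier subunit, had log2 fold changes of -0.24 in TalaR-M cells (adjusted p = 0.0659) and -0.35 in TalaR-DF cells (adjusted p = 0.00667) without that library, opposite in sign to GCLC in TalaR-DF cells. GSR, which regenerates reduced glutathione, was lower in TalaR-M cells without replicate 2 (log2 fold change -0.42, adjusted p = 0.000533) and did not pass with all 9 (-0.66, adjusted p = 0.0507). GPX4, the peroxidase that reduces lipid peroxides, was at 7.42 to 7.52 log2 CPM in parental and at 6.53 to 6.90 in TalaR-DF cells. In TalaR-M cells it was at 6.96, 8.66 and 6.84, so that replicate 2 alone lay above the parental range. Without that library GPX4 was lower in both resistant groups, with log2 fold changes of -0.57 (adjusted p = 0.000282) and -0.72 (adjusted p = 1.61e-05), whereas with it neither comparison passed. Of the 5 glutathione genes tested, SLC7A11 was the only one to pass against parental cells with all 9 libraries.

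**Figure D2:**
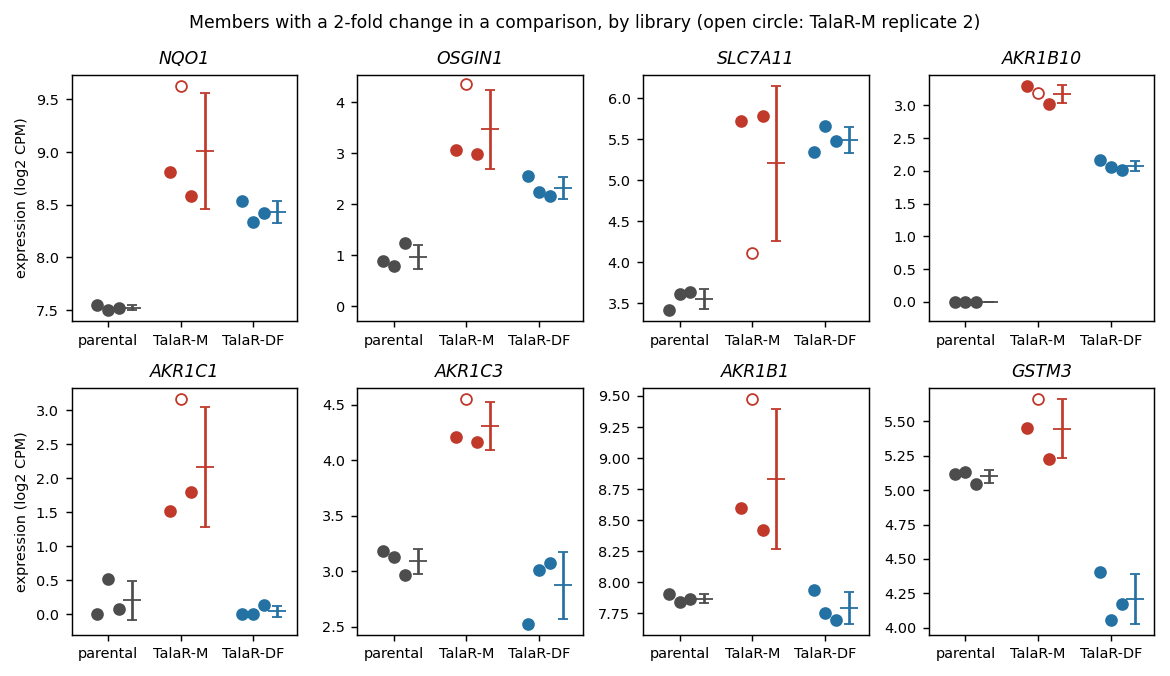
Log2 CPM (vertical axis) of the 8 members that passed with a 2-fold change in a comparison, for the 3 libraries of each group, with the open circle for TalaR-M replicate 2 and the bar for the group mean and SD (n = 3). SLC7A11, AKR1B10, OSGIN1 and NQO1 lie above the parental libraries in both resistant groups, AKR1C1, AKR1C3 and AKR1B1 do so in TalaR-M cells, and GSTM3 is lowest in TalaR-DF cells.

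The aldo-keto reductases, which turn aldehydes and ketones into alcohols with NADPH, had the largest share of members that passed in TalaR-M against parental cells among the 9 roles. The roles are small, with 2 to 5 members tested in each. Of the 5 aldo-keto reductases, 4 exceeded their parental level in TalaR-M cells, and the same 4 exceeded their TalaR-DF level there. Both counts held with all 9 libraries and also without TalaR-M replicate 2. Of all genes, 10.3% and 7.79% were higher in these comparisons with all 9 libraries, and 30.2% and 23.5% without that replicate. AKR1B10, which reduces retinal and other aldehydes, was at 0 in the 3 parental libraries, at 3.29, 3.19 and 3.02 log2 CPM in TalaR-M and at 2.16, 2.05 and 2.01 in TalaR-DF cells. No group overlapped another, and replicate 2 did not depart from its group. Since the table ends at 1 CPM, AKR1B10 exceeded its parental level at least 8.98-fold in TalaR-M and at least 4.21-fold in TalaR-DF cells (adjusted p = 1.01e-06 and 1.47e-05 by limma). Between the resistant groups the log2 fold change was 1.09 (SE 0.12, adjusted p = 0.00105), and all these calls held under every alternative run.

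AKR1C1, a 20-alpha-hydroxysteroid dehydrogenase, was at 0, 0.53 and 0.08 log2 CPM in parental, at 1.52, 3.16 and 1.80 in TalaR-M and at 0, 0 and 0.14 in TalaR-DF cells. The TalaR-M libraries lay above all others, while parental and TalaR-DF cells overlapped at the end of the table. The log2 fold change was 1.96 against parental (SE 0.39, adjusted p = 0.00763 by limma; 1.46 without replicate 2) and 2.12 against TalaR-DF cells (SE 0.39, adjusted p = 0.0101; 1.62 without replicate 2), and both understate the change because libraries at 0 lie at or under 1 CPM. The level of AKR1C1 was low in every group, with a mean of 1.66 log2 CPM in TalaR-M cells without replicate 2. The call against TalaR-DF cells was lost in a fit of these groups alone (adjusted p = 0.0705), and the one against parental cells held under every alternative run.

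AKR1C3, which makes androgens and prostaglandins, was at 3.18, 3.13 and 2.96 log2 CPM in parental, at 4.21, 4.55 and 4.16 in TalaR-M and at 2.53, 3.01 and 3.08 in TalaR-DF cells. The TalaR-M libraries stood clear of the other groups, which overlapped each other. AKR1C3 differed by a log2 fold change of 1.22 against parental (SE 0.20, adjusted p = 0.0029 by limma) and 1.43 against TalaR-DF cells (SE 0.20, adjusted p = 0.00256), and 1.09 and 1.31 without replicate 2, and both calls held under every alternative run. TalaR-DF and parental cells did not differ by the test in AKR1C3, with a log2 fold change of -0.22 and a 95% interval of -0.67 to 0.23 (adjusted p = 0.555). AKR1C2, the remaining member of this cluster on chromosome 10, was under 1 log2 CPM in all 9 libraries and passed in no comparison of either fit. In TalaR-M against parental cells AKR1C2 passed without TalaR-M replicate 3 (log2 fold change 0.63, adjusted p = 0.0425 by limma).

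AKR1B1, the aldose reductase of the polyol pathway, was at 7.90, 7.84 and 7.86 log2 CPM in parental, at 8.60, 9.47 and 8.42 in TalaR-M and at 7.94, 7.76 and 7.69 in TalaR-DF cells. The TalaR-M libraries again lay above the others. AKR1B1 differed by a log2 fold change of 0.96 against parental (SE 0.26, adjusted p = 0.0283 by limma) and 1.04 against TalaR-DF cells (SE 0.26, adjusted p = 0.0357), and 0.64 and 0.71 without replicate 2 (adjusted p = 3.05e-05 and 2.35e-05). The first call passed under 12 of 19 alternatives and was lost without parental replicate 1, 2 or 3 or TalaR-DF replicate 2 or 3. The second passed under 10 of 19 and was lost without any 1 of the parental or TalaR-DF libraries. Both were also lost with no filter on low values and in a fit of the groups compared alone, and the second with the replicate number as a block. In TalaR-DF cells AKR1B1 differed from parental cells by -0.07 (95% interval -0.66 to 0.52, adjusted p = 0.91).

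In the genome the aldo-keto reductases form 2 clusters. AKR1C1, AKR1C2 and AKR1C3 lie on chromosome 10 between 4963253 and 5107686, a span of 144 kb, and AKR1B1 and AKR1B10 lie on chromosome 7 between 134442356 and 134541412, a span of 99.1 kb (hg38). On chromosome 7, AKR1B10 passed in TalaR-DF against parental cells and AKR1B1 did not, and whether their changes differed was not tested. The AKR1C transcripts share stretches of sequence with each other. Of all 100-base words of the canonical transcript, 12.6% for AKR1C1, 27.8% for AKR1C2 and 7.82% for AKR1C3 also occur in transcripts of other genes, mainly of this cluster, against 1.97% for AKR1B10 and none for AKR1B1, and the treatment of reads shared between copies is not given in the sources used here. The split of reads among AKR1C1, AKR1C2 and AKR1C3 is therefore uncertain.

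**Figure D3:**
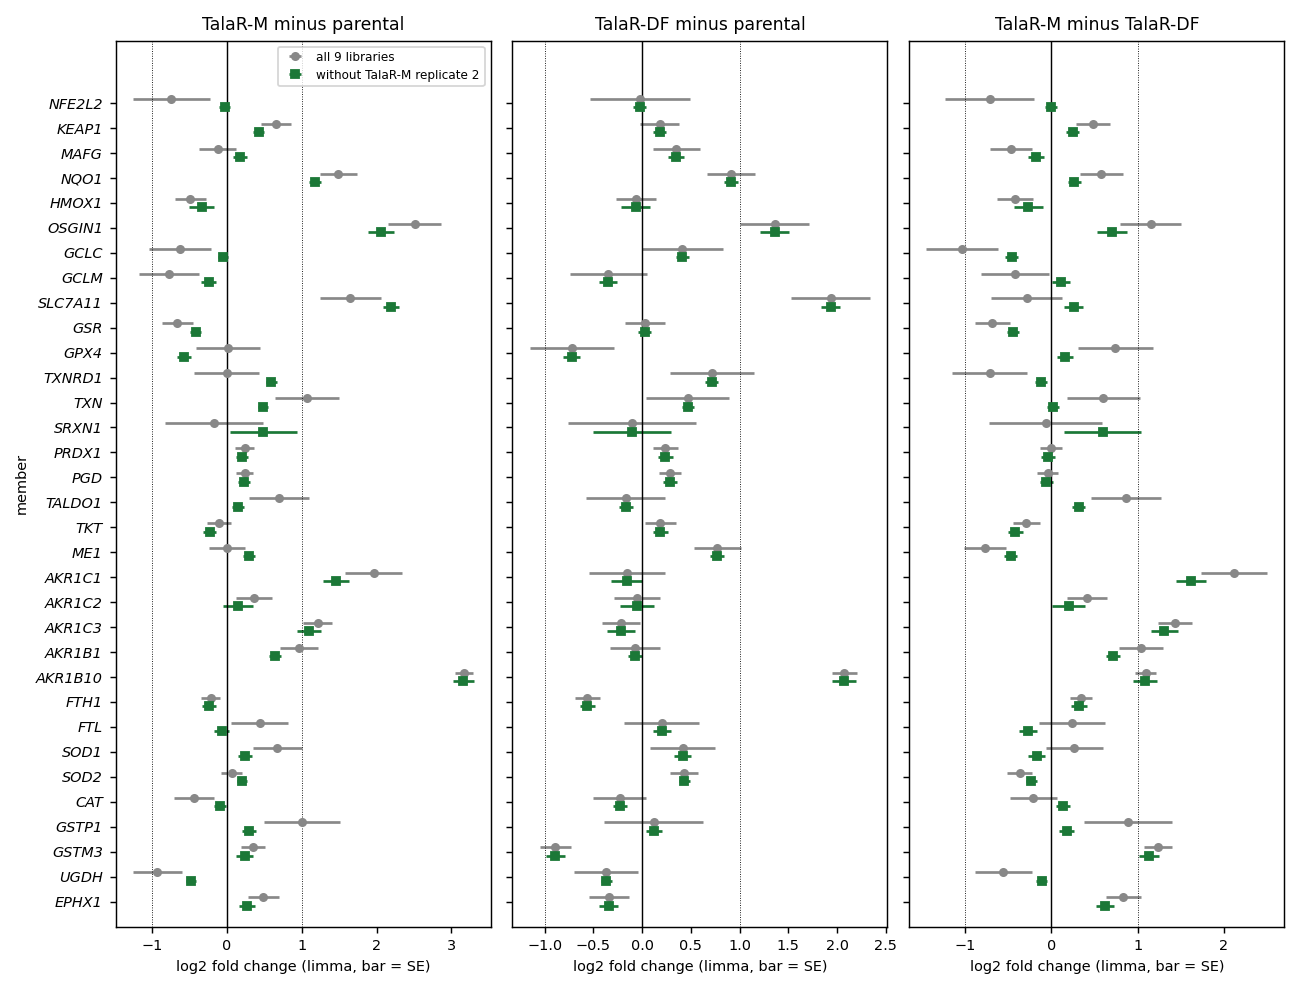
Log2 fold change of each of the 33 tested members (horizontal axis, bar = SE of limma) for TalaR-M minus parental, TalaR-DF minus parental and TalaR-M minus TalaR-DF, with gray circles for all 9 libraries and green squares without TalaR-M replicate 2, and dotted lines at 2-fold. AKR1B10, OSGIN1, SLC7A11, AKR1C1, AKR1C3 and NQO1 lie beyond 2-fold in the first panel in both fits. In that panel the fits differ by more than 0.5 for several members, among them NFE2L2, GSTP1, TXNRD1, GPX4 and SLC7A11.

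The 4 thioredoxin genes passed in no comparison with all 9 libraries by limma, and at an unadjusted p under 0.05 TXN alone had a higher level, in TalaR-M against parental cells. TXNRD1, the reductase that recharges thioredoxin, was at 8.04 to 8.11 log2 CPM in parental and at 8.74 to 8.83 in TalaR-DF cells, and at 8.78, 6.89 and 8.56 in TalaR-M cells. Replicate 2 alone lay below the parental range. Without it TXNRD1 was higher in TalaR-M (log2 fold change 0.59, adjusted p = 2.49e-05 by limma) and in TalaR-DF cells (0.71, adjusted p = 1.98e-06). TXN, thioredoxin itself, was at 7.62 to 7.67 log2 CPM in parental and 8.05 to 8.16 in TalaR-DF cells, and at 8.23, 9.89 and 8.03 in TalaR-M cells, so that its replicate 2 departed upward. Without that library TXN was higher by 0.48 in TalaR-M (adjusted p = 8.88e-05) and by 0.47 in TalaR-DF cells (adjusted p = 4.34e-05). PRDX1, a peroxidase fed by thioredoxin, was higher by 0.20 (adjusted p = 0.0486) and 0.24 (adjusted p = 0.0132) in that fit. SRXN1, which repairs overoxidized peroxiredoxins, ran from 0.38 to 2.20 log2 CPM within the parental libraries and passed nowhere. Of the 100-base words of its transcript, 90.4% also belong to another annotated gene at the locus, ENSG00000270299, so its value is uncertain.

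The NADPH-producing enzymes and the pentose phosphate enzymes also passed in no comparison with all 9 libraries by limma. At an unadjusted p under 0.05, PGD and ME1 were higher in TalaR-DF than in parental cells, and ME1 than in TalaR-M cells. Malic enzyme ME1 was at 5.17 to 5.28 log2 CPM in parental, at 5.63, 4.63 and 5.41 in TalaR-M and at 5.96 to 6.01 in TalaR-DF cells. The TalaR-DF libraries of ME1 lay above all others. ME1 was higher by 0.77 in TalaR-DF (adjusted p = 2.33e-06 by limma) and by 0.30 in TalaR-M cells (adjusted p = 0.00665) when TalaR-M replicate 2 was left out. PGD, of the oxidative pentose phosphate pathway, was higher by 0.23 in TalaR-M (adjusted p = 0.0241) and by 0.29 in TalaR-DF cells (adjusted p = 0.00367) in that fit. TKT, of the non-oxidative branch, was lower by 0.23 in TalaR-M cells (adjusted p = 0.0373) and had a log2 fold change of 0.19 in TalaR-DF cells (adjusted p = 0.051). In TalaR-M against TalaR-DF cells TKT was lower by 0.42 in the same fit (adjusted p = 0.00193 by limma). TALDO1, of the same branch, did not pass against parental cells in either fit and was higher in TalaR-M than in TalaR-DF cells without replicate 2 (0.32, adjusted p = 0.00622).

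Of the ferritins, which store iron, FTH1 was at 8.41, 8.31 and 8.39 log2 CPM in parental, at 8.20, 8.20 and 8.06 in TalaR-M and at 8.01, 7.71 and 7.70 in TalaR-DF cells. The groups did not overlap. FTH1 was lower in TalaR-DF cells by 0.56 (SE 0.13, adjusted p = 0.0186 by limma; adjusted p = 9.15e-05 without TalaR-M replicate 2), a call that was lost without parental replicate 1, 2 or 3 or TalaR-DF replicate 2 or 3. Without TalaR-M replicate 2, the TalaR-M level of FTH1 was 0.24 below parental and 0.32 above TalaR-DF cells (adjusted p = 0.0399 and 0.0121 by limma). FTL, the light chain, passed in no comparison of either fit. FTH1 shares 20.7% and FTL 3.37% of their 100-base words with transcripts of other genes, mostly their pseudogenes, of which the annotation names 25 after FTH1 and 16 after FTL. Of the enzymes that remove superoxide and peroxide, SOD1, SOD2 and CAT passed in no comparison with all 9 libraries by limma, and at an unadjusted p under 0.05 SOD2 was higher in TalaR-DF than in either other group. Without TalaR-M replicate 2, SOD1 and SOD2 were higher in both resistant groups, by 0.20 to 0.43 on the log2 scale, and CAT was lower in TalaR-DF cells by 0.23 (adjusted p = 0.0145).

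Among the conjugating and detoxifying enzymes, GSTM3, a glutathione transferase of the mu class (chr1:109733932-109741038, minus strand), was at 5.12, 5.13 and 5.05 log2 CPM in parental, at 5.45, 5.66 and 5.23 in TalaR-M and at 4.40, 4.05 and 4.17 in TalaR-DF cells. The TalaR-DF libraries lay below all others and the TalaR-M libraries above all parental ones. GSTM3 was lower in TalaR-DF than in parental cells, with a log2 fold change of -0.89 (SE 0.16, adjusted p = 0.0058 by limma), and higher in TalaR-M than in TalaR-DF cells, with 1.24 (SE 0.16, adjusted p = 0.00194; 1.13 without replicate 2). Both calls held under every alternative run. Against parental cells the TalaR-M level did not pass (log2 fold change 0.35, adjusted p = 0.152). EPHX1, the microsomal epoxide hydrolase, was at 5.29 to 5.62 log2 CPM in parental, at 5.66 to 6.34 in TalaR-M and at 4.93 to 5.18 in TalaR-DF cells. It was higher in TalaR-M than in TalaR-DF cells by 0.84 (SE 0.20, adjusted p = 0.0348) and by 0.62 without replicate 2. The first call passed under 10 of 19 alternatives and was lost without any 1 of the parental or TalaR-DF libraries. Against parental cells EPHX1 passed only without TalaR-M replicate 2, higher by 0.28 in TalaR-M cells (adjusted p = 0.0426 by limma). In TalaR-DF cells it was lower by 0.34 in that fit (adjusted p = 0.00827).

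UGDH, which makes the sugar donor for glucuronidation, and GSTP1, the pi class glutathione transferase, passed in no comparison with all 9 libraries by limma, and at an unadjusted p under 0.05 UGDH was lower in TalaR-M than in parental cells. Without TalaR-M replicate 2, UGDH was lower in TalaR-M (log2 fold change -0.48, adjusted p = 5.27e-05 by limma) and in TalaR-DF cells (-0.37, adjusted p = 0.000154). GSTP1 was at 7.75 to 7.87 log2 CPM in parental cells and at 8.19, 10.22 and 8.03 in TalaR-M cells. Its log2 fold change of 1.00 with all 9 libraries (SE 0.51, adjusted p = 0.186) became 0.30 (SE 0.09, adjusted p = 0.0127) without replicate 2, a library in which GSTP1 was 2.11 log2 units above the mean of the other TalaR-M libraries.

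TalaR-M replicate 2 departed from its group along transcript length. Over the 29 members with a mean above 2 log2 CPM, its difference from the mean of replicates 1 and 3 ran from -2.13 for NFE2L2 to 2.11 for GSTP1, and correlated with the log2 length of the canonical transcript at Pearson's r = -0.70 and Spearman's rho = -0.74. The points are genes of 1 library and are not independent, and over all 10441 genes with such a mean and a length the values were -0.65 and -0.64. It lay more than 2-fold from its group in 48.3% of these members and in 46.3% of those genes. The 9 shortest transcripts among the 29, from 737 bases for TXN to 1203 bases for FTH1, were all above the group, with a median of 1.52 log2 units, and of the 10 of at least 3000 bases 9 were below, with a median of -1.11. AKR1B10, with 1619 bases, was within 0.03 of its group and AKR1C3, with 1186 bases, within 0.36. The median range of these 29 members within a group was 0.10 log2 units in parental cells, 0.21 in TalaR-DF cells and 1.05 in TalaR-M cells, and 0.17 in TalaR-M cells without replicate 2.

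**Figure D4:**
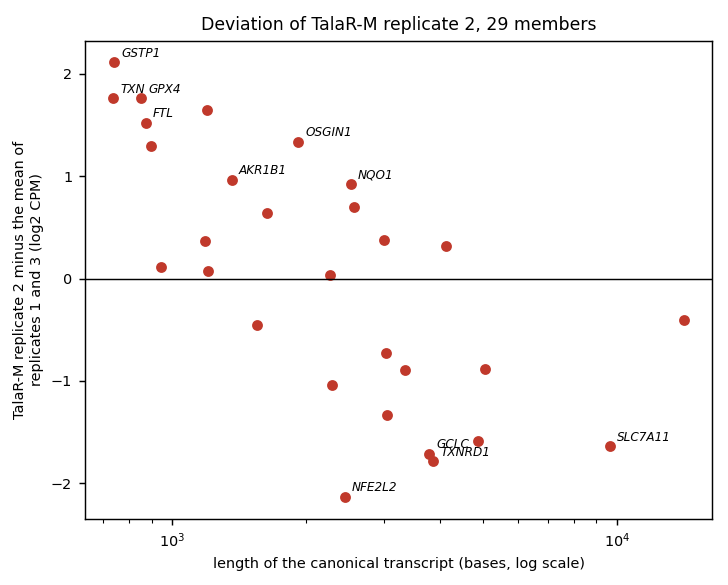
Difference of TalaR-M replicate 2 from its 2 group mates' mean (vertical axis, log2 CPM) against the length of the canonical transcript (horizontal axis, bases, log scale) for the 29 members with a mean above 2 log2 CPM, one point per gene. Short transcripts such as GSTP1 and TXN lie up to 2.11 above 0 and long ones such as SLC7A11 and TXNRD1 below it (r = -0.70).

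NRF2 and small MAF proteins bind the antioxidant response element, whose core is TGACNNNGC. Promoter sequence from RefSeq (GRCh38.p14), 250 bases before to 50 after a start site, was matched by symbol for 27 of the 34 members, and had no entry for SLC7A11, HMOX1, AKR1B10, SOD1, PRDX1, GSR and FTH1. On either strand the core was found in 8 of the 27 members, or 29.6%, and in 23.1% of their 39 promoters, beside 13.3% of 35116 promoters in the table and 14.3% of those of the genes tested. The core can hold TGACTCA, the site of AP-1, and does so in ME1 and GSTP1. Each of the 8 members is shown with 1 match, the one farthest before its start site, to let candidate elements be read. The search gave 12 matches with full flanks, more than 1 of them in each of ME1, TXNRD1 and KEAP1. The core is in capitals with 10 bases on each side, in the direction of the gene, and matches on the opposite strand read GCNNNGTCA.
PGD, chr1:10398853-10398881, plus strand: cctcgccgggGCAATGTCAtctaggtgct
GCLM, chr1:93909446-93909474, minus strand: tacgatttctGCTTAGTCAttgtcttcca
EPHX1, chr1:225825266-225825294, plus strand: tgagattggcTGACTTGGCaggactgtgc
ME1, chr6:83431170-83431198, minus strand: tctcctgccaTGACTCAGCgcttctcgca
GSTP1, chr11:67583736-67583764, plus strand: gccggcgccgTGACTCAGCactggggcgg
TXNRD1, chr12:104286920-104286948, plus strand: gtggatttctGCTTTGTCAttctgactct
GPX2, chr14:64942849-64942877, minus strand: acctgtttttGCTAAGTCAtcctggggat
KEAP1, chr19:10502807-10502835, minus strand: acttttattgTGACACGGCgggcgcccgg

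A match is a description of these letters and not a site of binding. GPX2, which holds one, was at 0 in all 9 libraries. With all 9 libraries, KEAP1 alone of the 7 others passed in TalaR-M against parental cells, beside 23.6% of all genes. Without replicate 2, 6 of the 7 were higher there, beside 17 of the 33 members tested and 30.2% of all genes. None of the 7 passed with a 2-fold change in any comparison of either fit. The window holds no match in NQO1, OSGIN1, AKR1C1 and AKR1C3, from which nothing is drawn about NRF2.

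Of 96 further genes of the pathway and of neighbouring detoxification families, 83 were tested. In TalaR-M cells 16 were higher and 9 lower than in parental cells, beside 10.3% and 13.2% of all genes. In TalaR-DF cells 10 were higher and 11 lower, beside 6.77% and 11.8%. Between TalaR-M and TalaR-DF cells 11 were higher and 2 lower, beside 7.79% and 4.25%. In the fit without TalaR-M replicate 2 the counts were 35 and 22, beside 30.2% and 30%, then 31 and 27, beside 32.5% and 30.4%, and 29 and 18, beside 23.5% and 25.3%. A 2-fold change was reached by 8 higher and 3 lower genes in TalaR-M cells, beside 5.53% and 7.72%, by 3 higher and 6 lower in TalaR-DF cells, beside 2.25% and 7.49%, and by 6 higher and none lower between them, beside 5.29% and 1.64%. As shares of the 83 genes, 30.1%, 25.3% and 15.7% passed in the 3 comparisons with all 9 libraries.

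Those named, up to 3 per comparison, passed with a 2-fold change in both fits and were ranked by their change with all 9 libraries. ALDH3A1, an aldehyde dehydrogenase, was at 0 in all parental libraries, at 3.08, 3.85 and 3.20 log2 CPM in TalaR-M and at 0.90, 0.54 and 0.79 in TalaR-DF cells. In TalaR-M cells it thus exceeded its parental level at least 10.4-fold (adjusted p = 1.2e-05 by limma), or 8.82-fold without replicate 2, and its log2 fold change between the resistant groups was 2.63 (adjusted p = 0.000162). The carbonyl reductase CBR3 was at 0 in all parental and all TalaR-DF libraries and at 1.24, 2.88 and 1.00 in TalaR-M cells, at least 3.27-fold higher (adjusted p = 0.0218 and 0.0367), and 2.17-fold without replicate 2. ALDH3A1 and CBR3 thus had the order of the aldo-keto reductases AKR1B10 and AKR1C1. PIR, an iron-binding nuclear protein, was higher by 1.94 in TalaR-M cells (adjusted p = 0.000579) and by 0.79 in TalaR-DF cells (adjusted p = 0.0495). ABCC3, an exporter of conjugates, was at 4.55, 4.64 and 4.64 in parental, at 5.92, 6.17 and 6.44 in TalaR-M and at 4.49, 4.83 and 4.34 in TalaR-DF cells. It exceeded parental cells in TalaR-M cells by 1.56 (adjusted p = 0.000524) and TalaR-DF cells by 1.62 (adjusted p = 0.000991), and the TalaR-M libraries overlapped neither group.

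The genes named for lower levels were EPHX2, GPX3 and GSTM2. EPHX2, the soluble epoxide hydrolase, was lower in TalaR-DF cells by 1.96 on the log2 scale (adjusted p = 0.000917 by limma) and in TalaR-M cells by 1.27 (adjusted p = 0.00717). GPX3, the plasma glutathione peroxidase, was at 1.68, 1.16 and 1.49 log2 CPM in parental, at 0.99, 1.38 and 1.05 in TalaR-M and at 0 in all TalaR-DF libraries, at least 2.72-fold lower in TalaR-DF than in parental cells (adjusted p = 0.000592). GSTM2, a neighbour of GSTM3 in the same gene family, was lower in TalaR-DF cells by 1.41 (adjusted p = 0.0117) and in TalaR-M cells by 1.03 (adjusted p = 0.0371). GSTM3 did not pass in TalaR-M against parental cells, and whether the changes of these genes differed was not tested.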

How the data were processed

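The 9 PSN1 libraries, 3 per group, were made by the authors from poly(A) RNA with a kit that keeps the strand, and read from both ends for 150 bases. The deposited values are log2 CPM with a small prior count and with values under 0 set to 0, a unit read from the values, of which 100% under 50 CPM gave whole reads within 0.05. The submitters' processing notes name hg38, and the aligner, counting method and annotation are not given in the sources used here. Columns named for maintenance and withdrawal were matched to the TalaR-M and TalaR-DF titles. Libraries of other lines and of short treatments were not analysed here. Some items of the marker lists are not reported here.

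The 12471 genes that exceeded 1 CPM in 3 libraries or more entered limma 3.58.1 (R 4.3.3), in 1 model of the 3 groups with a mean-variance trend and Benjamini-Hochberg adjustment. No further pseudocount was added. Because the deposited values end at 0 and hold a small prior count, changes of genes near 1 CPM are understated. A gene passed at an adjusted p under 0.05. The script was tested on simulated data with no deviant library and no length trend, so that test does not cover the departure of TalaR-M replicate 2. Lengths and positions came from GENCODE 44, promoters from RefSeq. The members and the lists were chosen with earlier results of these data known. All members are named, with values per library for those with a 2-fold change that passed in either fit and for the regulators. Other pathway genes are named up to 3 per comparison. These passed with a 2-fold change in both fits and had the largest changes with all 9 libraries. Values per library of further members were added after their values were seen. Alternatives were 2 pseudocounts, 2 filters, median-ratio scaling, no trend, a replicate block, the 2 groups alone, a 2-fold threshold, array weights, removal of a length and GC trend, and leaving out each library.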

Additional observations from a re-analysis of the deposited data

How the results depend on the processing

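The number of members passing in TalaR-M against parental, 8, was 5 with no filter, 5 in a fit of these groups alone, 21 with array weights and 17 with the length and GC trend removed, and 5 to 22 when 1 library was left out. In TalaR-DF against parental, 6 became 21 in a fit of these groups alone, 22 with array weights, 15 with the trend removed and 3 with the 2-fold threshold, and 2 to 21 without 1 library. In TalaR-M against TalaR-DF, 6 became 3 in a fit of these groups alone, 16 with array weights and 13 with the trend removed, and 4 to 16 without 1 library. Of the fits that left out 1 library, the one without TalaR-M replicate 2, whose array weight was 0.0133, gave the highest count in each comparison. The cause was not tested. In that fit 30.2% of all genes were higher and 30% lower in TalaR-M against parental, and 32.5% and 30.4% in TalaR-DF against parental. Between the resistant groups these shares were 23.5% and 25.3%. For the other alternative fits the share of all genes was not counted, so their counts of members have no background beside them. For single members, TXNRD1 in TalaR-M against parental was 0.55 with array weights and 0.59 without TalaR-M replicate 2, on the other side of 0 from its value with all libraries, and -0.35 without TalaR-M replicate 1. GPX4 there was -0.57 with array weights, -0.55 with the trend removed and -0.57 without that replicate, against 0.02, and 0.34 without TalaR-M replicate 3. Between TalaR-M and TalaR-DF, with the trend removed, SLC7A11 was 0.33 against -0.29 and FTL -0.34 against 0.24. With the replicate number as a block, 7, 4 and 4 members passed in the 3 comparisons. Correlations of same-numbered deviations between groups ran from -0.42 to 0.22, and those of differently numbered ones from -0.48 to 0.46. The deviations within a group are tied to each other through the group mean, so they do not settle whether the numbers pair the libraries. Adding 8 CPM lowers the fold change of the least expressed members by construction (OSGIN1 in TalaR-M against parental to 0.97, AKR1B10 to 1.09). Below 1 CPM, which was worth 6.97 to 14.54 reads, no level could be told from 0.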
